A study of Mus musculus with 884 samples.

Results

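The day 6 cells were single S-phase cells of the female mouse embryonic stem cell (ESC) line CBMS1, taken on day 6 of a neural differentiation that runs from day 0 to day 7. All columns of the deposited 80 kb call table that belong to day 6 and to an S-phase sorting gate were kept, which gave 64 cells of 884 in the series. The cells had been grown as ESCs in 2i/LIF medium, turned into epiblast-like cells for 2 days and then kept as floating aggregates in plain GK15 medium with no added factors. Per the labels, the strain is CBA/MsM, and the same line and strain apply to the d0, d2, d3, d4, d5 and d7 cells used for comparison. Those cells were taken on other days of the same differentiation, so their culture differs by day. The d0 cells are the undifferentiated ESCs, the d5 and d7 cells come from the same kind of aggregate culture, a day earlier and a day later, and the submitters describe d7 as neurectoderm. The EpiSC cells are female epiblast stem cells grown in Activin/FGF medium. The line is a single cell line, no label names a culture or a clone within a day, and no RNA was measured, so the cell type named in the labels could not be checked against marker genes. Each day therefore counted as 1 sample, cells were not replicates of a day, and no test was made between days; differences are given as sizes, and intervals cover counting error over cells only.

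A mammalian cell copies its chromosomes in a set order. Gene-rich, transcribed domains in the nuclear interior are usually copied early in S phase, and gene-poor domains at the nuclear lamina late. Some domains switch between early and late when embryonic stem cells differentiate, so that the order itself is a mark of cell identity. Single-cell Repli-seq reads this order from the DNA of 1 sorted cell: a stretch that has been copied gives more reads than a stretch that has not.

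For each cell and each of 30890 autosomal bins of 80 kb, the authors' table gives 1 call, replicated or not replicated, or no call. A cell's replication score, the share of called bins with a replicated call in percent, places the cell in S phase. The 64 day 6 cells had calls in 22882 to 29819 bins, with a median of 29651. Their scores ran from 0.954% to 100%, with a median of 48.3%. The 7 day 6 cells sorted in G1, before replication starts, give the background of false replicated calls: their scores lay between 0.0642% and 4.01%, with a median of 0.814%. Of the S-phase cells, 8 scored under 5%, and of these all but 45perS_12, at 4.81%, lay within the range of the G1 cells. Another 4 scored above 95%, and the 52 others, at 9.39% to 90.1%, were used to place bins in the order.

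The sorting gate placed day 6 cells only roughly. The labels name 6 gates by the part of S phase they were set to. Scores ran from 1.74% to 46.1% in the 25% gate (median 21.4%, n = 11), from 0.954% to 64.2% in the 35% gate (median 17.5%, n = 11) and from 1.31% to 50.5% in the 45% gate (median 22.5%, n = 12). They ran from 49.6% to 90.1% in the 55% gate (median 63.1%, n = 12), from 53% to 100% in the 65% gate (median 71.6%, n = 8) and from 36.4% to 99.8% in the 75% gate (median 87.0%, n = 10). The first 3 gates overlapped from 1.74% to 46.1%, and their medians lay within 5 points of each other. The 45% gate held 5 of the 8 cells under 5%. Of the 34 cells of the 25% to 45% gates, 11 scored above the lowest of the 30 cells of the 55% to 75% gates. All 21 cells labelled as having a score of 40 to 70% lay in that range in the table, and no other day 6 cell did.

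**Figure D1:**
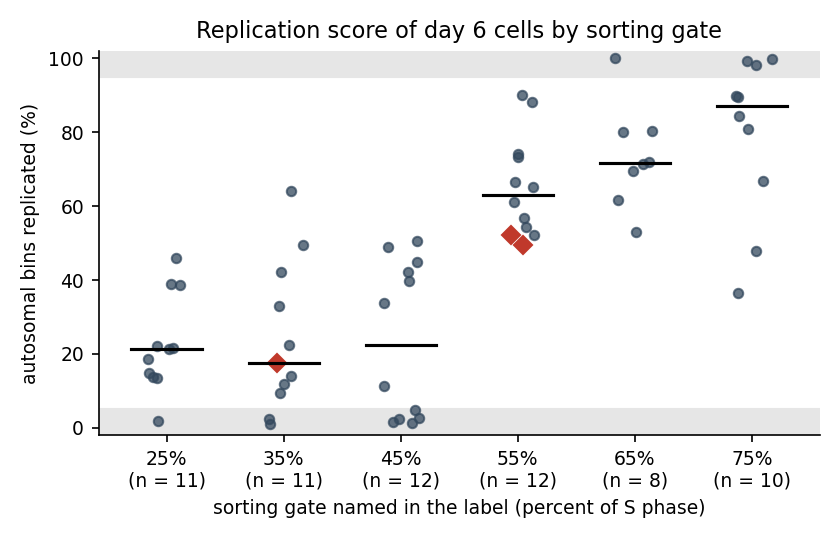
Replication score (percent of called autosomal bins replicated) of each day 6 S-phase cell, by the sorting gate named in its label. Points are cells, bars are medians, shaded bands mark scores under 5% and above 95%, and red diamonds are the 3 cells whose program lay close to that of ESCs. The cells of the 3 lower gates lie between 0.954% and 64.2%, and those of the 3 upper gates between 36.4% and 100%.

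The order of replication was shared by the day 6 cells across S phase. For each bin, the midpoint is the score at which 50% of cells had replicated it, from a logistic fit over the 52 cells, and 29798 bins could be fitted. The midpoints had a median of 49.5, with 10% of bins below 13 and 10% above 89.0. Bins with a midpoint under 40 are called early here and bins with a midpoint over 60 late. There were 11365 early bins (38.1%, 909 Mb), 7174 middle bins (24.1%, 574 Mb) and 11259 late bins (37.8%, 901 Mb).

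The bins were filled in sequence as the score rose. In the 9 cells with scores of 5 to 20%, a median of 67.0% of the bins with midpoints under 20 were replicated (range 41.4% to 73.7%), against 11.0% of the bins with midpoints of 20 to 40 and 0.917% of those with midpoints of 80 or more. In the 10 cells of 20 to 40%, the first class stood at 96.2% and the second at 60.3%, with a wide range in the second, from 26.3% to 78.8%. In the 14 cells of 40 to 60%, the middle class of bins (midpoints of 40 to 60) was at a median of 48.1%, between 26.6% and 67.7%. In the same 14 cells, the classes on either side were at 89.8% and 9.23%. In the 8 cells of 80 to 95%, the last class had a median of 37.2% replicated and a range of 15.2% to 54.8%, and the class before it a median of 92.4%. These shares describe the cells from which the midpoints came and are not independent of them.

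**Figure D2:**
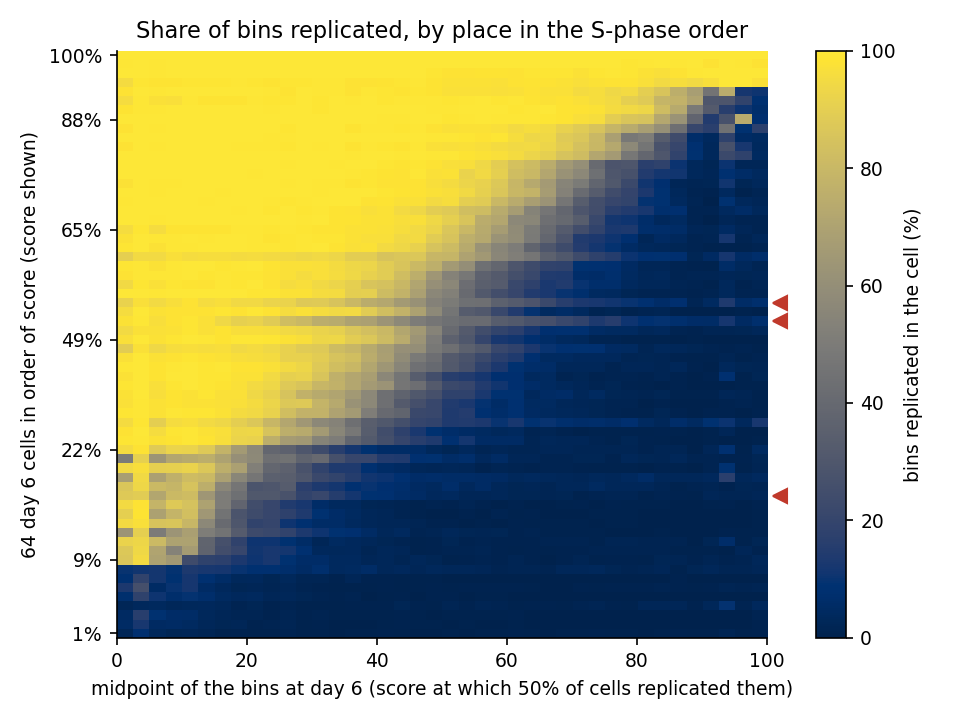
Each row is 1 of the 64 day 6 cells in order of replication score, and each column a class of bins 2.5 points of midpoint wide; colour is the percent of the class replicated in that cell. The edge between replicated and unreplicated bins moves steadily from the earliest to the latest bins, and red marks show the 3 cells near the ESC program, 2 of them with a blurred edge at scores of 49.6% and 52%.

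The cells at either end of S phase were less uniform. In the cells under 5%, a median of 6.45% of the bins with midpoints under 20 were replicated, and a median of 0.444% of those with midpoints of 80 or more. In 45perS_04, which scored 2.68%, 95.2% of 610 replicated bins were early and 0.328% late. In 25perS_02, which scored 1.74%, 42.3% of 506 replicated bins were early and 40.3% late. The first cell had calls in 22882 bins and the second in 29280. Both scores lay within the range of the G1 cells, and both cells departed from the order on chromosome 12. There, 23.3% of called bins were replicated in 45perS_04 and 19.5% in 25perS_02, against 3.08% and 1.65% that the order gives. In 25perS_02 these bins included a run of 5920 kb. Of the 4 cells above 95%, 65perS_04 had no unreplicated bin left among 29644 called, while 90.1% of the 71 unreplicated bins of 75perS_02 were late. In 75perS_01, 60.6% of 198 unreplicated bins were late, and in 75perS_09, 53.5% of 565 were late and 25.8% early. Long runs of equal calls held many of these bins. In 75perS_01, 1 of the 2 unreplicated runs spanned 14960 kb on chromosome 3. The 6 unreplicated runs of 75perS_09 included 22880 kb on chromosome 3, 12720 kb on chromosome 6 and 5360 kb on chromosome 15. Such runs cannot be told from stretches with a copy less, as set out below.

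Whole chromosomes differed in their mean midpoint at day 6. Chromosome 11 was the earliest, with a mean midpoint of 35.4 and 56.9% early bins, followed by chromosome 19 at 40.7 and chromosome 9 at 41.6. Chromosome 3 was the latest, at 60.7 with 54.7% late bins, followed by chromosome 1 at 57.2 and chromosome 16 at 56.4. Along all 19 autosomes, the 50 fitted bins nearest the distal end had a mean midpoint of 39.9 with 52.8% early bins, against 50.2 over all bins. The 50 fitted bins nearest the start of the chromosome had a mean of 50.3. Neighbouring bins had like midpoints: the median absolute difference was 2.00 points at 80 kb, 8.00 at 400 kb, 14 at 960 kb and 23 at 4000 kb.

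The earliest and latest windows of 800 kb were named by their mean midpoint, at most 1 per chromosome, which chose them for the values given. All coordinates are of the mm9 build; no annotation of that build was used here, so no gene is placed in them. The 3 earliest were chr11:100160001-100960000, chr4:132480001-133280000 and chr15:78560001-79360000, with mean midpoints of 0.00, 0.15 and 0.15, the low end of the fitted range. They were replicated, meaning over 50% of their called bins, in 50, 51 and 50 of the 52 cells, starting with the cell of the lowest score (9.39%). The highest score with the window unreplicated was 89.7% for chromosome 11, and 22.2% for both chromosomes 4 and 15. The 3 latest were chr5:61120001-61920000, chr14:94560001-95360000 and chr15:22160001-22960000, all with a mean midpoint of 100. Each was replicated in 1 of 52 cells, at a score of 84.4%, and unreplicated in 4 cells that scored higher. The earliest windows had mean midpoints of 2.70 to 7.05 at d0 and of 3.85 to 10.6 at d7. The latest ones had 88.9 to 99.3 at d0 and 96.3 to 99.1 at d7.

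The width of a bin's transition was described by its span, the number of score points between 25% and 75% of cells replicated. The median span at day 6 was 12.9 points over all fitted bins, and 12.9, 15.5 and 10.7 points over early, middle and late bins, on a coarse grid of values. The narrowest window with a mean midpoint of 30 to 70 was chr13:52480001-53280000. All cells up to a score of 33.7% had it unreplicated and all 37 cells from 36.4% upward had it replicated, with a mean span of 1.81 points at day 6, 10.7 at d0 and 11.3 at d7. The next, chr4:13680001-14480000, was replicated from 65.1% on, with 2 of the cells above that score still unreplicated and a mean span of 2.72 points. The 3 widest windows with such midpoints were chr3:137600001-138400000 at 71.5 points, chr6:65600001-66400000 at 71.3 and chr12:93120001-93920000 at 60.3. The same 3 windows had mean spans of 15.9, 13.2 and 29 points at d0 and of 51.9, 41.1 and 28.9 at d7. Narrow and wide windows alike were chosen by their day 6 span, which favours less extreme spans on other days. Numbers of fitted cells also differ, with 52 at day 6, 157 at d0 and 189 at d7.

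The chromosome 3 and chromosome 12 windows lay in long stretches where some day 6 cells did not follow the order, and the chromosome 6 window lay near one. A block was defined, after the values had been seen, as a run of at least 3 Mb of equal calls whose mean midpoint in the other cells lay more than 15 points on the wrong side of the cell's score. There were 26 such blocks in 16 of the 64 cells, and 4 stretches were covered by blocks of the same call in at least 3 cells. A stretch of 22.9 Mb at the distal end of chromosome 3 (chr3:136640001-159520000) and 1 of 4.24 Mb on chromosome 6 (chr6:69280001-73520000) were unreplicated against the order. A pair of neighbouring stretches on chromosome 12, which together span 7.20 Mb (chr12:92480001-99680000), were replicated against the order.

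The same cells carried most of them. Of the 39 day 6 cells with scores of more than 30% and up to 95%, 10 had under 5% of the called bins of the chromosome 3 stretch replicated (highest 3.88%), and the other 29 had 16.8% to 100%. In the 10 cells, the chromosome 6 stretch was at 0% in 8, at 26.4% in 55perS_04 and at 77.4% in 75perS_07; in the 29 it was at 43.4% to 90.6%. The chromosome 12 stretch was replicated to 63.3% or more in 9 of the 10 and to 15.6% in 75perS_07, against a median of 16.7% in the 29 (range 2.22% to 72.2%). Between scores of 30 and 75%, where all 3 stretches can tell cells apart, 6 of 31 day 6 cells (19.4%, exact 95% interval 7.45% to 37.5%) met all of 3 conditions: under 5% on chromosome 3, under 5% on chromosome 6 and over 60% on chromosome 12. They were 35perS_02, 35perS_07, 45perS_07, 55perS_02, 55perS_12 and 65perS_08, from 4 gates. A single further cell, 75perS_07, met 1 condition, and 24 met none.

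**Figure D3:**
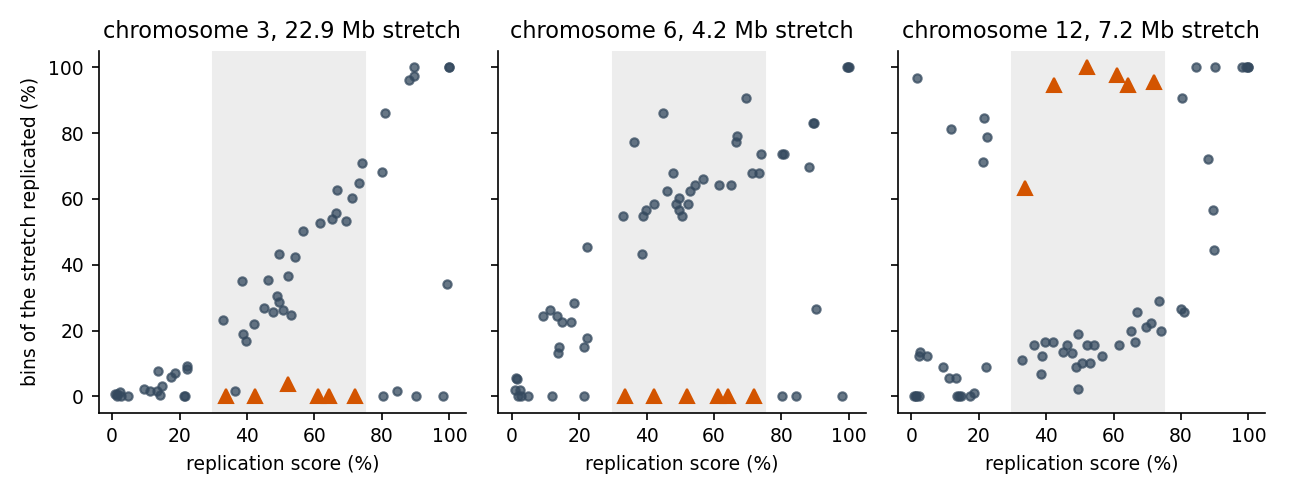
Percent of the called bins replicated in the stretches of chromosomes 3, 6 and 12 against replication score, for the 64 day 6 S-phase cells. Orange triangles are the 6 cells between scores of 30 and 75% (shaded) with under 5% on chromosomes 3 and 6 and over 60% on chromosome 12. In the shaded range all other cells lie apart from them on all 3, except 75perS_07 (score 36.4%) on chromosome 3.

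By the same 3 conditions and scores, 1 of 28 d5 cells and 6 of 134 d7 cells met all 3, and 0 of 89 d0, 53 d2, 21 d3, 21 d4 and 39 EpiSC cells did, which allows shares of up to 3.37%, 5.66%, 14.3%, 14.3% and 7.69%. All 6 of the d7 cells were among the 37 that had been corrected with the G1 control used for all day 6 cells; of the 97 d7 cells corrected with other controls, 0 did (a count of 0 allows up to 3.09%). A further 6 d7 cells with the day 6 control met 2 of the 3. Cells outside this range of scores showed parts of the pattern too. In 5 cells under 30%, the chromosome 12 stretch was replicated to 71.1% or more: 25perS_02, 25perS_10, 25perS_11, 35perS_05 and 35perS_11. Bins without a call went with it, since 0.00%, 2.80%, 18.5%, 100% and 0.00% of the chromosome 3 bins had a call in these 5 cells. In 35perS_02 it was 24.8%, and in 75perS_09, which scored 98.1%, 7.78% of the chromosome 12 bins had one. Of the 7 day 6 cells in G1, G1_02 had 60% of its chromosome 12 stretch called replicated and calls in 0.699% of the chromosome 3 and 0.00% of the chromosome 6 bins, while the other six had at most 5.56% replicated on chromosome 12 and calls in 94.3% or more of each stretch. The calls rest on read density, in which a replicated stretch and a stretch with an additional copy, or an unreplicated stretch and a stretch with a copy less, cannot be told apart. Without the bins of the 4 stretches, the numbers of early and late bins at day 6 were 11311 and 10983.

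Whole chromosomes also departed from the order in single cells. In 55perS_02, which scored 61.1%, 6.59% of the called bins of chromosome 8 were replicated, against 59.2% that the order of the other cells gives at that score. In 75perS_07, at 36.4%, chromosomes 14, 6, 16 and 15 were ahead of the order, with 56.5%, 59.4%, 48.6% and 54.2% replicated against 27.2%, 30.5%, 25.1% and 31.7%. The chromosome 8 value and the first 2 of these were the largest departures of a whole chromosome among the 64 cells.

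Domain sizes changed with progress through S phase and did so differently for replicated and unreplicated stretches. A run is a stretch of equal calls on a chromosome, counted across up to 3 uncalled bins. The number of runs per cell was highest in the first part of S phase, with a median of 1385 in cells of 5 to 20% (range 921 to 1728, n = 9) and 1459 in cells of 20 to 40% (1201 to 2411, n = 10). It was 1351 in cells of 40 to 60% (1116 to 1658, n = 14), 912 in cells of 60 to 80% (749 to 1195, n = 11) and 529 in cells of 80 to 95% (326 to 644, n = 8). The last range did not overlap that of the 3 bands under 60%.

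Replicated runs lengthened throughout. A cell's median replicated run was 320 kb at 5 to 20% (range 240 to 480 kb), 1040 kb at 40 to 60% (800 to 1440 kb) and 4120 kb at 80 to 95% (3280 to 5960 kb). Unreplicated runs kept a near constant median: 1280 kb at 5 to 20% (960 to 1920 kb), 1040 kb at 40 to 60% (800 to 1280 kb) and 1000 kb at 80 to 95% (560 to 1120 kb). The longest unreplicated run had a median of 32320 kb per cell in the first of these bands and of 9560 kb in the last. In the last band, the highest value, 22880 kb, was the chromosome 3 stretch in both 55perS_04 and 65perS_07. The start and the end of S phase were not mirror images in a cell's median run length. The median replicated run in cells of 5 to 20% was 480 kb at most. The median unreplicated run in cells of 80 to 95% was 560 kb at least. Single runs overlapped in length, since the longest replicated run per cell of 5 to 20% was 2960 to 6960 kb. At d0, d5 and d7 the same medians were 320, 320 and 400 kb for replicated runs at 5 to 20% and 880, 800 and 960 kb for unreplicated runs at 80 to 95%. Day 6 cells had a median of 132 runs of 1 bin, of either call, at 5 to 20% and of 8.5 at 80 to 95%. Whether isolated erroneous calls shorten the early replicated runs was not tested, since 1-bin runs were merged only in cells of 40 to 60%. In cells of 40 to 60%, the median number of runs was 1419 at d0 (n = 41), 1477 at d5 (n = 13), 1351 at day 6 (n = 14) and 1178 at d7 (n = 63), with ranges that overlapped.

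**Figure D4:**
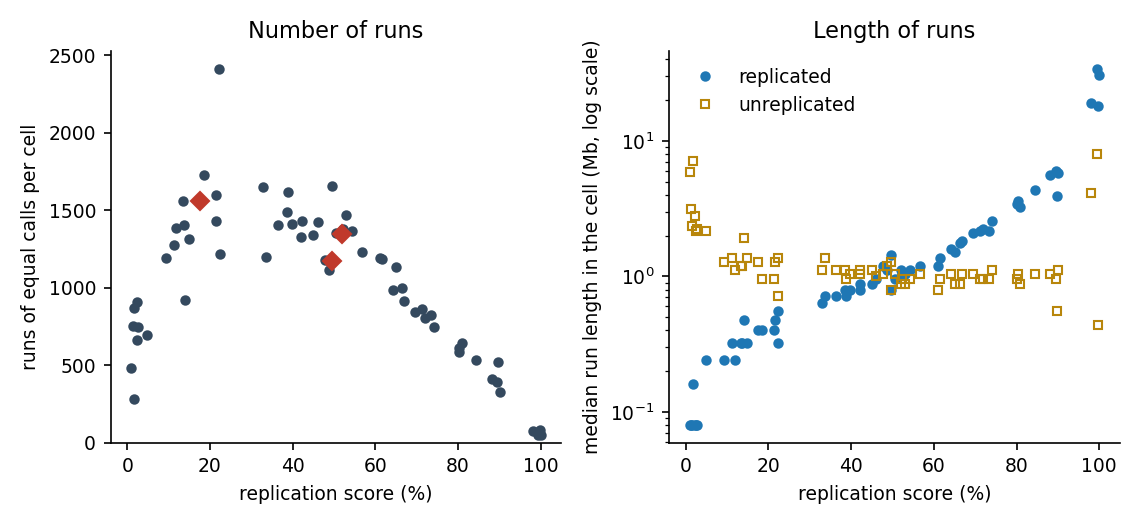
Left, number of runs of equal calls per day 6 cell against its replication score; red diamonds are the 3 cells near the ESC program. Right, median length of replicated (filled circles) and unreplicated (open squares) runs in the same cells, on a log scale. Replicated runs lengthen from 320 kb in cells of 5 to 20% to 4120 kb in cells of 80 to 95%, while unreplicated runs stay near 1000 kb between scores of 20 and 95%.

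In the fitted profile, early bins formed 687 domains with a median length of 720 kb and late bins 588 domains with a median of 800 kb. Among domains of 400 kb or more, 470 were early and 429 late, with medians of 1200 and 1360 kb. The longest early domain was 12000 kb on chromosome 2 (chr2:24160001-36160000), with a mean midpoint of 13.3. The longest late domains were a pair of 11360 kb on chromosome 1 (chr1:108720001-120080000 and chr1:141360001-152720000), at 90.5 and 88.5. The first of these late domains had a mean midpoint of 92.2 at d0 and 92.1 at d7. The second had 81.2 at d0 and 88.7 at d7. Between an early and a late domain, the stretch of middle bins had a median length of 320 kb over 623 borders, and the longest was 3200 kb.

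Cells with like scores had replicated largely the same bins. Over the 152 pairs of day 6 cells whose scores differed by 5 points or less, the 2 cells had the same call in a median of 84.3% of the bins called in both, with a range of 74.1% to 92.5%. The lowest value was in the 40 to 60% band, where 60 pairs had a median of 82.7%. The highest, 92.5%, was between 55perS_09 and 75perS_08, so none of the fitted cells was a copy of another. When each cell was set against the order of the 51 others, a median of 88.9% of its calls followed that order at its own score (range 78.4% to 93.5%). Within 10 points of the cell's score, 65.5% of calls did, and beyond 20 points 98.1% did. Bins replicated at least 20 points too soon made up a median of 2.61% of those that could be (range 1.04% to 10.4%, 44 cells), and bins still unreplicated at least 20 points too late 1.54% (range 0.354% to 40.4%, 43 cells). The extreme of 40.4% was in 25perS_09, at a score of 22.2%, over 572 bins, and this cell also had the most runs, 2411.

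Borders in single cells lay close to the profile. Taking runs of at least 3 bins, cells had a median of 949 borders, and the median distance from a border to the nearest crossing of the profile at the cell's score was 240 kb (range of the cells' medians 160 to 720 kb). Of the borders, a median of 64.3% per cell lay within 400 kb. The ranking of a cell's calls by the share of other day 6 cells that had replicated the bin gave an area under the curve of 0.871 to 0.967, with a median of 0.947, where 1 would be a perfect order and 0.5 none. None of the 52 day 6 cells was below 0.8, against 3 of 157 d0, 3 of 50 d5 and 8 of 189 d7 cells.

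Most day 6 cells lay near the program of d7, and 3 lay close to that of ESCs. A cell's position was taken over the 4412 bins whose midpoints differed by 20 points or more between d0 and d7, of which 2220 were earlier and 2192 later at d7. It is the share of the d7 order in the mixture of both orders that fits the cell's calls best, 0 for d0 and 1 for d7, at the cell's own score. The median position was 0.01 at d0 (n = 157), 0.28 at d2 (n = 105), 0.23 at d3 (n = 39), 0.54 at d4 (n = 45), 0.73 at d5 (n = 50), 0.98 at day 6 (n = 52) and 1 at d7 (n = 189). It was 0.68 in EpiSC cells (n = 63), which no day 6 cell resembled most. At day 6, 39 of 52 cells were at 0.90 or above and 20 at 1, and the lower quartile was 0.895, against 0.99 at d7. The day 6 median was 0.845 with references from the previous series alone and 0.89 with a d7 reference from cells with the day 6 control alone. No day 6 cell lay between 0.18 and 0.76. Between 0.20 and 0.75 there were 0 day 6 cells, 21 of the 50 d5 cells and 13 of the 189 d7 cells.

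**Figure D5:**
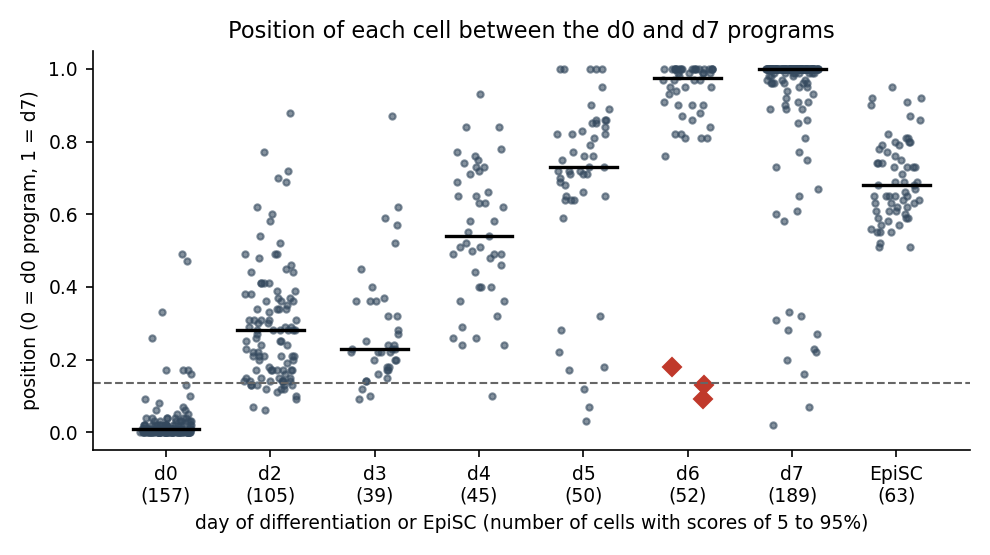
Position of each S-phase cell with a score of 5 to 95% between the d0 program (0) and the d7 program (1), by day and for EpiSC; bars are medians and the dashed line is the 95th percentile of the d0 cells (0.136). At day 6, 49 cells lie at 0.76 or above and 3, drawn as red diamonds, at 0.09, 0.13 and 0.18.

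The 3 low cells were 55perS_08 at 0.09, 55perS_12 at 0.13 and 35perS_10 at 0.18. A cell was called ESC-like when its position did not exceed 0.136, the 95th percentile of the d0 cells, which 2 of the 52 day 6 cells met (3.85%, exact 95% interval 0.469% to 13.2%). The third lay just above it, and the highest d0 cell was at 0.49. The count ran from 0 to 3 over other thresholds, reference cells and bin choices, while these cells remained the lowest of day 6 in all 7 alternatives that recomputed the position, among the cells each included. Among the other days, 3 of 50 d5 cells (6.00%, 1.25% to 16.5%) and 2 of 189 d7 cells (1.06%, 0.128% to 3.77%) met the rule, with intervals that overlap that of day 6. The 2 ESC-like cells had scores of 49.6% and 52% and both came from the 55% gate, where the 10 other cells were at 0.81 or above. In the authors' deposited cell list, the column headed Repliscore_filtering marks 2 day 6 cells, and they are these 2. The list's legend gives that column to cells with scores of 5% or less or 95% or more, but the 12 day 6 cells with such scores are marked in the column headed IQR_filtering, which the legend gives to outliers from a trajectory curve. The headings of both columns may therefore be exchanged, and which filter marked the 2 cells is not certain.

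The low position of the 3 cells was spread over most chromosomes. The values by chromosome and by direction of change split the bins that gave the position. They therefore describe where it was low and do not support it. Taken chromosome by chromosome, the position was below 0.50 on all 19 chromosomes in 55perS_08, on 18 in 55perS_12 and on 17 in 35perS_10, with medians of 0.06, 0.10 and 0.16. Of the 49 other cells, 35 were at 0.50 or above on every chromosome. Bins that become earlier gave 0.05, 0.11 and 0.14 in the 3 cells, and bins that become later 0.13, 0.16 and 0.22. Over the whole genome, 55perS_08 had the same call as d0 cells within 5 points of its score in a median of 80.8% of bins (25 cells, 37.5% to 82.3%), and as the other day 6 cells in 75.0% (9 cells, 74.1% to 77.2%). For 55perS_12 the values were 82.2% with d0 cells (26 cells, 37.5% to 83.5%) and 77.2% with day 6 cells (8 cells, 75.6% to 78.7%). For 35perS_10 they were 87.4% (13 cells, 86.8% to 88.1%) and 83.2% (9 cells, 78.6% to 87.9%). The ranges overlapped in all 3 cases. Agreement with d0 cells alone did not set 35perS_10 apart: it was 87.8% in 35perS_03 (score 14.1%), whose position was 0.90. For the 2 others it was above that of the 10 other day 6 cells with scores between 44.6% and 57%. The highest of those was 79.3% in 45perS_09 (score 48.8%, position 1). Just below these scores, 45perS_11 (score 42.1%, position 0.91) was at 81.3%. In all 3 low cells the median agreement with d0 cells was above that with day 6 cells, and in the 49 others it was below. The profile that each of the 3 cells followed most closely was that of d0; of the other 49 cells, 34 were closest to day 6, 13 to d7 and 2 to d5.

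These cells also stood apart in the spread within day 6. The 2 ESC-like cells had the lowest shares of calls that followed the order of the other day 6 cells, 78.4% and 81.1%. Their numbers of runs, 1174 and 1350, lay within the range of the other cells of 40 to 60%, as did their numbers of called bins, 29662 and 29578. Of the 2, 55perS_12 was among the 6 cells with the chromosome 3, 6 and 12 pattern and 55perS_08 was not. With chromosomes 3, 6 and 12 left out, the position was 0.09 in both.

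At the regions with the largest change between d0 and d7, the ESC-like cells had the state of d0 cells in most cases. Regions were runs of at least 5 bins, and 10 other day 6, 30 d0 and 39 d7 cells with scores between 44.6% and 57% were set beside the 2 cells. The regions are among the bins that gave the position, so their states describe it and do not support it. A 2160 kb region on chromosome 18 (chr18:54080001-56240000), which moves from a mean midpoint of 74.1 at d0 to 29.1 at d7 and was at 27.1 at day 6, was replicated in 10 of 10 other day 6 cells, in 34 of 39 d7 cells and in 0 of 30 d0 cells. In 55perS_08 and 55perS_12, 11.1% and 18.5% of its bins were replicated. A 2240 kb region on chromosome 7 (chr7:76640001-78880000) went from 82.3 to 41.7, was replicated in 9 of 10 other day 6 cells, and was at 0.00% and 14.3% in the 2 cells.

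The reverse held for regions that become late. A 3760 kb region on chromosome 13 (chr13:64800001-68560000) moved from a midpoint of 15.2 at d0 to 75.8 at day 6 and 85.0 at d7. It was replicated in 29 of 30 d0 cells, 0 of 10 other day 6 cells and 2 of 39 d7 cells, and fully replicated in both ESC-like cells. A 2800 kb region on chromosome 7 (chr7:48320001-51120000) moved from 24.4 to 76.1 at day 6, was replicated in 30 of 30 d0 and 0 of 10 other day 6 cells, and was at 68.6% and 82.9% in the 2 cells. Of the 12 regions chosen this way, 1 departed in 1 of the ESC-like cells: an 880 kb region on chromosome 15 (chr15:90480001-91360000), which becomes earlier, was replicated to 63.6% in 55perS_08, as in 8 of 30 d0 cells. Over all regions where d0 and d7 differ in state at the cell's score, 55perS_08 had the d0 state in 48 of 62 that become earlier and 78 of 103 that become later, and 55perS_12 in 55 of 67 and 73 of 98. In 35perS_10, whose score of 17.5% left few regions to compare, it was 7 of 8 and 16 of 27.

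The day 6 profile, fitted over all 52 cells, had covered most of the change from d0 to d7. Over the bins that become earlier, the day 6 midpoint had covered a median of 92.6% of the change (quartiles 75.0% and 110%, 2220 bins), and over those that become later 87.3% (68.5% and 104%, 2192 bins). Under 50% was covered by 148 and 213 bins. These bins were chosen by their difference between d0 and d7, which favours day 6 values short of the full change. Across bins, the day 6 midpoints correlated with those of d0, d5 and d7 at r = 0.866, 0.931 and 0.967, as a description over 29689, 29749 and 29698 bins that are not independent.

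Counts of bins by a size rule fell from d0 to d5 to d7. A bin was counted as shifted when its midpoint differed by 20 points or more. Against d0, 2328 of 29689 bins were earlier at day 6 (7.84%) and 2113 later (7.12%). Against d5, the counts were 850 earlier (2.86%) and 735 later (2.47%) of 29749. Against d7, they were 274 earlier (0.923%) and 82 later (0.276%) of 29698. Another counting rule turned this balance. When a bin was counted instead where the share of cells of 40 to 70% that had replicated it differed by 0.3 or more, which takes no account of score within that range, 1814 bins were earlier (6.11%) and 2615 later (8.81%) against d0. By the same rule, 1118 were earlier (3.76%) and 1137 later (3.82%) against d5, and 193 earlier (0.65%) and 459 later (1.55%) against d7. Against each of the 3 days, more bins were earlier by the first rule and more were later by the second. Midpoint differences of 20 points or more also occurred within d7: the 63 d7 cells with the day 6 control were earlier than the 126 with other controls in 529 bins and later in 453. Numbers of cells differ (52 at day 6, 157 at d0, 50 at d5, 189 at d7), and fewer cells give noisier midpoints.

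Some regions differed in midpoint between d5 and day 6. The named ones are the 4 with the largest mean shift in each direction. They were chosen by that shift, so their d5 and day 6 midpoints and cell counts describe the choice and do not support it. The choice also favours d5 or day 6 values that are more extreme than those of other days. A 400 kb region on chromosome 14 (chr14:104080001-104480000) was at a mean midpoint of 59.7 at d5, 25.1 at day 6 and 28.7 at d7. It was replicated in 6 of 20 d5 cells of 40 to 70%, in 17 of 21 day 6 cells and in 82 of 101 d7 cells. A 560 kb region on chromosome 6 (chr6:67200001-67760000) went the other way, from 42.6 to 74.1 and 79.8, and was replicated in 17 of 20, 2 of 21 and 27 of 98 cells. It lies outside the chromosome 6 stretch described above, but the block of 55perS_04 between 64000001 and 68000000 covers it, and 1 of the other regions later at day 6 (chr3:148480001-149040000) lies inside the chromosome 3 stretch. A 400 kb region on chromosome 9 (chr9:81120001-81520000) was earlier at day 6 than on the days around it: its midpoint was 82.1 at d5, 47.9 at day 6 and 79.4 at d7, and it was replicated in 1 of 20, 15 of 21 and 14 of 101 cells.

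Between day 6 and d7, the 4 named regions that were earlier at day 6 lay in the first part of chromosome 12 and near the distal end of chromosome 2. They were chosen in the same way, by the shift between day 6 and d7, with the same limit. A 1200 kb region (chr12:19440001-20640000) had a mean midpoint of 38.2 at d0, 94.7 at d5, 66.3 at day 6 and 98.7 at d7, and was replicated in 2 of 19 d5, 4 of 21 day 6 and 1 of 101 d7 cells of 40 to 70%. A 720 kb region (chr2:176800001-177520000) had 2.83, 93.6, 66.9 and 99.2, and was replicated in 3 of 18, 4 of 21 and 5 of 96 cells. In both, the day 6 midpoint was below those of d5 and d7, but the shares of d5 and day 6 cells rest on few cells and were close. The chromosome 2 region is part of a longer one (chr2:176800001-178000000) that was fully replicated in both ESC-like cells and over 50% replicated in 1 of the 10 other day 6 cells of like score. By the midpoint rule there were 11 regions earlier at day 6 than at d7 and 2 later, a balance that the rule on shares turns for bins. Of the 2, 1 of 480 kb on chromosome 1 (chr1:128240001-128720000), at 66.9 against 44.2, was replicated in 5 of 21 day 6 and 72 of 101 d7 cells.

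Above a score of 30%, day 6 cells with the unreplicated chromosome 3 stretch had a lower median position than the others. The ranges overlapped. Leaving out the ESC-like cells, the 9 cells with the unreplicated chromosome 3 stretch had a median position of 0.87 (range 0.76 to 1) and the 28 without it 1 (0.81 to 1). With chromosomes 3, 6 and 12 left out of the position, the medians were 0.86 (0.73 to 1) and 1 (0.79 to 1). The 9 cells included the lowest of the 49, 35perS_07 at 0.76. Cells with scores under 30% were not part of this comparison. Of these, 35perS_11, 25perS_10, 35perS_05 and 25perS_11 had the chromosome 12 stretch replicated to 71.1% or more. Their positions were high, at 1, 1, 0.99 and 0.97. Whether position differs with the pattern at such scores was not tested.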

How the data were processed

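The deposited table holds 1 call per cell and 80 kb bin, coded as replicated, not replicated or no call, on the mm9 build. Per the labels, sorted single cells were amplified with SeqPlex and sequenced as single reads on an Illumina instrument. The submitters' processing notes name cutadapt, BWA 0.7.10-r789, Picard and mm9; the caller is not given in the sources used here. The authors' replication score is deposited as a fraction of autosomal bins and is printed as a percent. Per the deposited cell list, all day 6 cells share 1 merged G1 control for mappability, which 72 of the 219 d7 cells also had. Cells were matched to samples by title, and 7 columns of the table with no such match were not used.

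Midpoints and spans came from a grid maximum-likelihood logistic fit per bin on the score, which allowed for 1% of erroneous calls, over cells with scores of 5 to 95% and bins called in at least 50% of them (midpoint grid 0 to 100, step 0.5). Positions of d0 and d7 cells used references fitted without them, in 10 folds. The bins of the position were chosen once over all d0 and d7 cells, which favours positions near 0 at d0 and near 1 at d7. Windows of 10 bins (800 kb), at most 1 per chromosome and list, were named by mean midpoint and span, and regions of at least 5 bins by mean shift. No annotation of mm9 was used here, so no genes were placed. Each day was 1 sample, so no test was run. Intervals for shares are exact (Clopper-Pearson, 95%) and cover counting error only. The shares that a count of 0 allows are instead 3 divided by the number of cells. This is below the exact upper limit, which is 4.06% for 0 of 89 d0 cells. Python 3.11.15, numpy 2.4.6, pandas 2.3.3 and scipy 1.17.1 were used, and the fits were tested on simulated data. The cells, rules and lists were chosen with earlier results of these data known, and the blocks, the stretches and their thresholds were chosen after their values had been seen.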

Additional observations from a re-analysis of the deposited data

Results flagged for a closer look

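Among the 9 cells of the 35% gate with scores of 5 to 95%, the lowest position between the d0 and d7 programs, 0.18 in 35perS_10, lay far from the others: its gap to the next cell was 0.707 of the whole range of the gate. The limit that this gap passed is one that chance passes in about 1 in 20 groups of freely varying values, whereas positions cannot exceed 1. This cell scored 17.5%, had calls in 29569 bins, and had 5.94% of the chromosome 3 stretch and 0.00% of the chromosome 12 stretch replicated. The groups of more than 10 cells, which include the 55% gate with the 2 ESC-like cells, were not examined in this way.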

How the results depend on the processing

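Over 15 results and 109 alternatives, 87 values stayed close to the reported ones (counts within 1.5 times) and 22 moved. Values that are not counts were taken as close when they moved by less than 1 standard deviation over cells, cell pairs or bins. No day 6 cell had an area under the curve below 0.8. Leaving such cells out therefore could not change the day 6 order, runs or agreement. For the order, leaving out the cells marked by the authors and leaving out the ESC-like cells removed the same 2 cells. The count of ESC-like cells at day 6, reported as 2, was 0 with bins chosen by shares in cells of 40 to 70%, and 1 with a midpoint difference of 30 points, with references from the previous series alone, with references without cells whose area under the curve was below 0.8, and with d7 references of the day 6 control alone; it was 3 with the 3 other thresholds. The 3 lowest cells had positions of 0.06 to 0.19 in the alternatives that included all of them, and the next cell 0.57 or more. Counts of shifted bins moved with the size rule: at 15 and 30 points, earlier and later bins were 4026 and 3658, then 666 and 703 against d0, 2116 and 1778, then 157 and 118 against d5, and 727 and 378, then 60 and 2 against d7. By shares in cells of 40 to 70%, earlier and later bins were 1814 and 2615 against d0, 1118 and 1137 against d5, and 193 and 459 against d7, so that the larger direction turned from earlier to later in each. Against d7 cells with the day 6 control alone, later bins were 169, and against those with other controls earlier and later bins were 510 and 303. The control splits, the removal of the 4 stretches and the removal of 35perS_10 with the ESC-like cells were chosen after seeing the data. The cause of these moves was not tested, apart from the size rules, which admit more or fewer bins by construction. No paired analysis was possible because no result comes from a test: each day is 1 sample, and cell numbers only name cells. The cells under 5% had calls in 22882 to 29791 bins. Missing calls were uneven: in 45perS_04, 9.79% of the chromosome 3, 28.3% of the chromosome 6 and 100% of the chromosome 12 stretch had calls. Whether read depth accounts for the missing calls was not tested.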
